A study of Mus musculus with 12 samples.

Results

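The comparison described here is the difference between *Elk4* knockout (KO) and wild type (WT) bone marrow-derived mast cells (BMMCs) in their response to FcϵRI crosslinking. It was taken as 1 contrast, the log2 change with stimulation in KO minus the log2 change with stimulation in WT, and every gene with enough reads entered it, whether or not stimulation induced that gene in WT. The contrast used 8 of the 12 libraries of the study, 2 each of unstimulated WT, stimulated WT, unstimulated KO and stimulated KO BMMCs. Of 16234 genes in the count table, 172 had no count in any library and 12208 passed the filter on low counts and were tested. Of these, 86 genes (0.704%) differed in response by at least 2-fold at an adjusted p below 0.05, 60 with a higher (0.491%) and 26 with a lower response in KO (0.213%).

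BMMCs are obtained by growing bone marrow progenitors in mast cell growth factors. They came from *Elk4* WT, heterozygous (HZ) and KO mice of a conventional knockout on the C57BL/6N background, of both sexes and aged 6 to 12 weeks, with WT littermates as controls. Bone marrow was kept for 4 to 8 weeks in medium with 10 ng/ml each of IL-3 and SCF, after which more than 80% of the cells carried both CD117 and FcϵRI. Stimulated cells were incubated overnight with anti-DNP IgE at 0.5 µg/ml and then received 100 ng/ml of the antigen DNP-HSA for 1 h, whereas the other libraries are labelled untreated. Whether untreated cells were also sensitized with IgE, and what a replicate number stands for (a mouse, a culture or a well), is not stated, so that p-values measure the spread between these libraries, which may be technical. In bulk RNA, a lower level per cell and fewer cells that express a gene cannot be told apart.

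Mast cells carry the high-affinity IgE receptor FcϵRI, and its crosslinking by antigen sets off granule release within minutes and then new transcription through the MAP kinase, calcium/NFAT and NF-κB routes. ELK4 is a ternary complex factor, an ETS-family protein that binds DNA beside serum response factor (SRF) at CArG boxes and relays MAP kinase signals to immediate-early genes. Immediate-early genes, such as those of the EGR, FOS and NR4A families, are transcribed within minutes of a signal without new protein synthesis, and an antigen pulse of 1 h captures them together with early chemokine and cytokine transcripts.

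Library totals lay between 29697958 and 35531667 counts, and the biological coefficient of variation between libraries of 1 group was 4.01%. Levels are given as CPM (counts scaled to a common library size, with TMM factors) for the first and second library of a group, and responses as log2 changes with the standard error (SE) of their difference from the quasi-likelihood test of edgeR, whose p-values were adjusted by the method of Benjamini and Hochberg. For genes with at least 100 counts on average, the median SE of the difference in response was 0.107. *Elk4* itself (NCBI Gene 13714) had 73.2 and 78.3 CPM in unstimulated WT, 78.2 and 67.0 in stimulated WT, 69.7 and 63.5 in unstimulated KO and 67.1 and 68.5 in stimulated KO. These levels overlapped between genotypes after stimulation, and a count summed over the gene cannot show a deletion within it. Its response did not differ detectably (log2 difference 0.09, SE 0.09, adjusted p = 0.619), and the libraries are named here by their labels. The summed level of 11 mast cell markers was between 48113 and 53527 CPM in all 8 libraries, whereas that of 14 macrophage and monocyte markers was 129 to 132 CPM in unstimulated WT, 65.4 to 66.8 in unstimulated KO, 89.7 to 92.8 in stimulated WT and 51.2 to 58.4 in stimulated KO. Most of this macrophage and monocyte sum was *Cx3cr1*, with 118 and 121 CPM in unstimulated WT and 49.6 and 49.4 in unstimulated KO. *Lyz2* ran the other way, with 3.95 and 4.57 against 9.65 and 12.2, so the sum does not describe the list as a whole. None of the 7 macrophage markers tested passed in the contrast, beside 9.27% of all genes tested. The part of such cells in the results was not tested. Neutrophil markers summed to at most 0.504 CPM, with 1 of their 7 genes at 0 in every library, and lymphocyte markers to at most 0.705. Basophil markers summed to between 595 and 708 CPM, with 1 of 6 higher and 1 lower in the contrast (5.44% and 3.83% of all genes tested). Most of that sum came from these 2, *Cd200r3* at 461 to 595 CPM and *Gata1* at 98.0 to 125 CPM. *Mcpt8*, another marker on the list, had 4.68 and 5.57 CPM in unstimulated WT and 7.71 and 8.51 in unstimulated KO.

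The difference in response was small for most genes. Its median over all genes tested was -0.01 on the log2 scale, with quartiles of -0.13 and 0.16. At an adjusted p below 0.05 without a fold threshold, 1132 genes passed (9.27%), 664 with a higher (5.44%) and 468 with a lower response in KO (3.83%), and 912 of them differed by less than 1.5-fold. Without adjustment, 2565 genes had a p below 0.05. Genes that stimulation raised at least 2-fold in WT passed most often, with 40.6% of 453. In this group 123 had a higher and 61 a lower response, 33 and 13 of them past the 2-fold threshold, and the median difference was 0.07. Among the 373 genes that stimulation lowered at least 2-fold in WT, 8.04% passed, 25 with a higher and 5 with a lower response. That count mixes genes that fell less, did not pass or rose in KO. These groups were sorted by the WT response, which the contrast subtracts. Noise in the WT libraries thus favours higher calls among lowered genes and lower calls among raised genes. Among the 11382 genes that changed less than 2-fold or not significantly in WT, 8.07% passed, and 27 of these, 15 higher and 12 lower, also differed by at least 2-fold between genotypes.

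**Figure D1:**
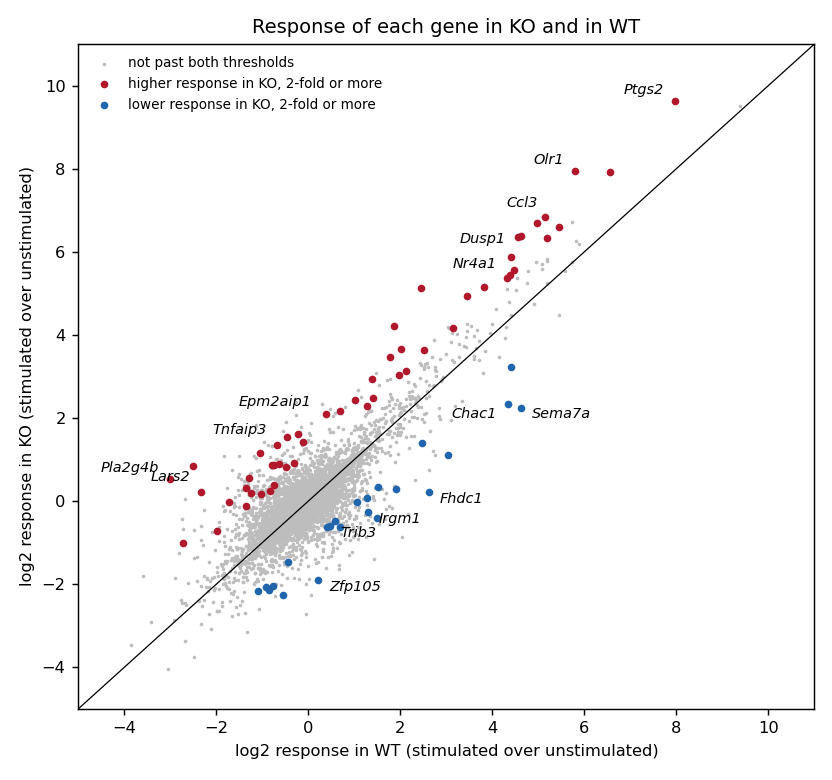
Log2 response to stimulation in WT (x axis) and in KO (y axis) for the tested genes with a mean above 3 counts in each of the 4 groups; the line marks equal responses. Red points are the 52 genes with a higher and blue points the 23 genes with a lower response in KO past both thresholds, and the red points run from genes that fell in WT, such as *Lars2*, to the strongly induced *Ptgs2*.

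Of the 86 genes, 11 had a group with a mean of at most 3 counts and are left out of the counts in this paragraph. Among the other 52 genes with a higher response in KO, 29 rose in both genotypes and rose further in KO, 5 fell in WT and rose in KO, 4 did not pass in WT and rose in KO, and 10 fell in WT and did not pass in KO. Of the remaining 4, 2 fell in both and 2 passed in neither. Over all genes tested, 22.4% rose and 22.9% fell in WT and 20.4% rose and 20.5% fell in KO at an adjusted p below 0.05. The KO and WT responses did not overlap over any pairing of libraries for 85 of the 86 genes, against 34.6% of all genes tested, a separation that the threshold itself favours. For 32 of the 52 (61.5%), the gap between KO and WT was wider before stimulation than after it. Of the 52, 13 were lower in unstimulated KO and did not differ detectably after stimulation, 12 were lower in KO in both states, 13 were lower before and higher after, 7 were higher only after, 6 were higher in both states and 1 passed in neither. Among the 23 genes with a lower response in KO, 7 rose in WT and did not pass in KO, 5 rose in both, 3 rose in WT and fell in KO, 4 fell in both and 4 fell in KO alone. Here the gap was wider after stimulation for 14 genes (60.9%), and 15 of the 23 were lower in stimulated KO than in stimulated WT. Without the fold threshold, the gap was wider before stimulation for 61.7% of 465 lower and 54% of 656 higher genes. The contrast between directions thus holds only past that threshold. Over all genes tested, 21.7% were lower and 22.9% higher in unstimulated KO, and 19.2% and 21.2% in stimulated KO.

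**Figure D2:**
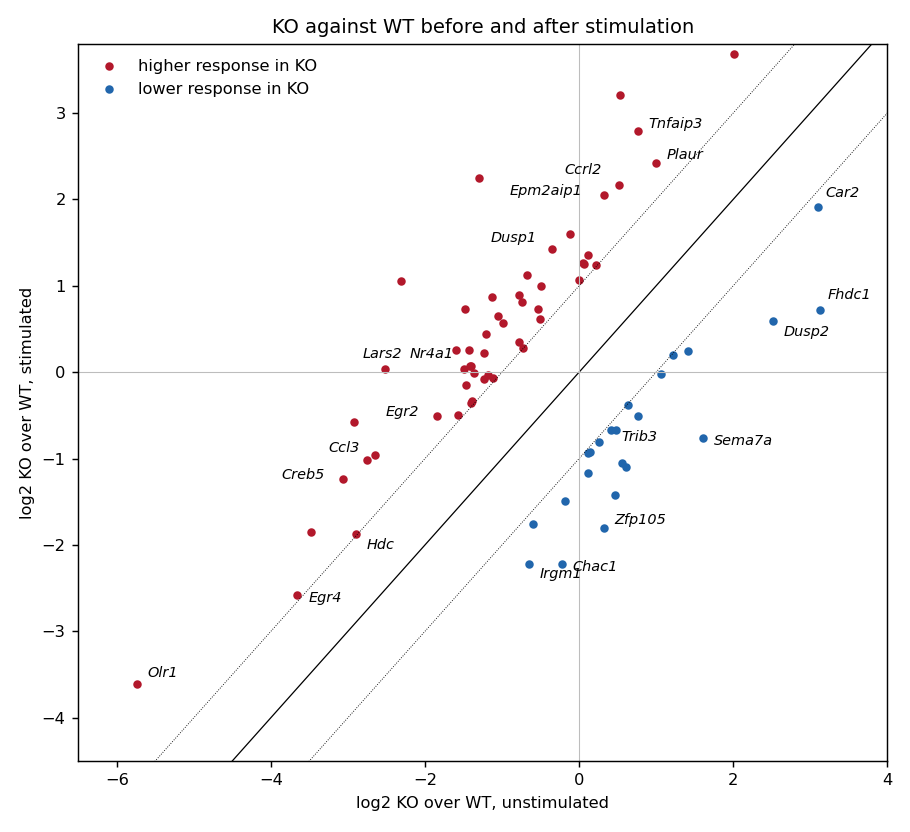
Log2 level in KO over WT in unstimulated (x axis) and stimulated (y axis) BMMCs for the same 75 genes; the solid line marks an equal ratio in both states and the dotted lines a 2-fold difference in response. *Olr1*, *Hdc* and *Ccl3* lie low in KO in both states, *Tnfaip3* and *Ccrl2* lie high in both, and *Chac1* and *Irgm1* lie lowest among the blue points after stimulation.

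A ratio and an amount differ for genes whose starting level differs. For the 29 genes that rose in both genotypes and had a higher log2 response in KO, the gain in CPM (stimulated minus unstimulated) was larger in KO for 16, smaller in KO for 9 and overlapped between genotypes for 4, over every pairing of libraries. *Ccl3* was in the second set, with a mean gain of 3119 CPM in WT and 1634 in KO. *Hdc* gained 985 CPM in WT and 286 in KO. *Dusp1* was in the first set, with a gain of 189 CPM in WT and 522 in KO. Among the 15 genes that rose in WT and had a lower log2 response in KO, the gain was smaller in KO for 12 and overlapped for 3.

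Of the gene lists with at least 10 members tested, immediate-early transcription factors had the largest share of differing genes. All 30 on the list were tested, and 21 had a higher and 1 a lower response in KO, beside 5.44% and 3.83% of all genes, and 8 of the 21 passed the 2-fold threshold. Among the 453 genes raised at least 2-fold in WT, 123 were higher and 61 lower. The median difference of the 30 was 0.63 on the log2 scale. Their levels were mostly lower in unstimulated KO, where 22 of 30 were below WT (median log2 difference -0.48, beside 21.7% of all genes tested that were lower), whereas after stimulation 12 were higher and 12 lower than WT (21.2% and 19.2% of all genes tested), with a median of 0.02. *Nr4a1* (NCBI Gene 15370), an orphan nuclear receptor induced by antigen receptors, had 325 and 324 CPM in unstimulated WT and 121 and 126 in unstimulated KO. After stimulation it reached 6787 and 6940 CPM in WT and 7222 and 7239 in KO. The genotypes were well apart before stimulation and within 0.08 on the log2 scale after it, and the response differed by 1.47 (SE 0.03, adjusted p = 8.09e-36). *Csrnp1* (NCBI Gene 215418), a nuclear protein induced by AXIN and cytokines, had 174 and 173 CPM in unstimulated WT against 63.4 and 66.2 in KO, and 1873 and 1908 CPM in stimulated WT against 1966 and 2005 in KO. Its response differed by 1.49 (SE 0.04, adjusted p = 5.38e-31). *Nr4a3*, of the same family as *Nr4a1*, showed a difference of 1.35 (SE 0.06, adjusted p = 4.8e-24), with 22.9 and 22.7 CPM in unstimulated WT, 8.85 in both unstimulated KO libraries and 2121 to 2148 CPM in all 4 stimulated libraries.

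*Egr2* (NCBI Gene 13654), a zinc finger factor that restrains lymphocyte activation and is a known SRF target, stayed lower in KO in both states. It had 265 and 251 CPM in unstimulated WT, 73.6 and 69.2 in unstimulated KO, 3632 and 3622 in stimulated WT and 2530 and 2556 in stimulated KO. The gap closed from a log2 difference of -1.85 to -0.51, and the response differed by 1.34 (SE 0.04, adjusted p = 4.09e-30). *Fos*, the partner of JUN proteins in AP-1, had 15.7 and 14.3 CPM in unstimulated WT, 6.75 and 5.89 in unstimulated KO, 538 and 548 in stimulated WT and 516 and 511 in stimulated KO. Its response differed by 1.16 (SE 0.08, adjusted p = 1.06e-15).

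Promoter windows show which motifs stand close to the start sites of these genes. Of the 30 immediate-early factors, 23 had a window. Sites more than 250 bases before a start were not searched, so a motif not found in a window may stand elsewhere in the gene's control region. RefSeq windows of 300 bases, 250 before to 50 after a gene's start in the GRCm38.p6 build, were matched to 9828 of the 12208 genes tested; the counts themselves were made on another build, so the windows were matched by gene. Both strands were searched for 5 motifs, the CArG box, the cAMP response element TGACGTCA (CRE), the AP-1 site TGANTCA, the EGR site GCGNGGGCG and the ATF4 element TGATGNAA, none of which contains another. Among 23 immediate-early factors with a window, the CArG box was found in 1 (4.35%, against 1.5% of all genes with a window), the CRE in 2 (8.70% against 3.54%), the AP-1 site in 1 (4.35% against 6.07%), the EGR site in 10 (43.5% against 12.1%) and the ATF4 element in 1 (4.35% against 2.79%). Among the 47 genes with a higher response past both thresholds that had a window, the shares were 4.26%, 8.51%, 12.8%, 14.9% and 4.26% in the same order. The gene with a CArG box was *Egr2*, whose window is shown with that motif in capitals; its other start sites gave overlapping windows with the same box, a window with another CArG box and a window without one. The window of *Dusp1*, whose response is given below, is shown with its CRE in capitals. A match of letters is a description of the window and does not show binding.
*Egr2*, chr10:67537619-67537918, plus strand: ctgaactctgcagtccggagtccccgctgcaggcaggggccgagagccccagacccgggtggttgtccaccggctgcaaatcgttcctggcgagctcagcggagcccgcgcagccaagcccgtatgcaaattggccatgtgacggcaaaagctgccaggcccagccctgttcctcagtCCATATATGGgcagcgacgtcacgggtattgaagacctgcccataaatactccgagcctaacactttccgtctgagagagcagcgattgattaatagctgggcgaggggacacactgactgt
*Dusp1*, chr17:26508423-26508722, minus strand: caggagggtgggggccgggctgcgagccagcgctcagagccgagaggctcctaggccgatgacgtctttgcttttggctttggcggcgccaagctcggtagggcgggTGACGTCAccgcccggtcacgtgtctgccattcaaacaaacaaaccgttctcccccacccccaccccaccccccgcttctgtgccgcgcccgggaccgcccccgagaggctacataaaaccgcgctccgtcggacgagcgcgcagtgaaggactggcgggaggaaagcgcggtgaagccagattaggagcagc

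Chemokines followed the pattern of the immediate-early genes in part. Of 18 on the list, 13 were tested, of which 5 had a higher and none a lower response in KO (background 5.44% and 3.83%). The median difference was 0.77, or 0.80 among the 8 with a mean above 3 counts in every group. For comparison, 40.6% of the 453 genes raised at least 2-fold in WT passed in either direction. *Ccl3* (NCBI Gene 20302) and *Ccl4* (NCBI Gene 20303), neighbouring chemokine genes whose products attract monocytes and lymphocytes, were lower in KO both before and after stimulation. *Ccl3* had 90.6 and 91.0 CPM in unstimulated WT, 14.5 in both unstimulated KO libraries, 3156 and 3263 in stimulated WT and 1651 and 1646 in stimulated KO. No library of KO reached the WT level of the same state, while the log2 response was higher in KO by 1.68 (SE 0.05, adjusted p = 2.35e-30), the gap going from -2.65 to -0.96. *Ccl4* had 78.2 and 80.5 CPM in unstimulated WT against 11.7 and 11.9 in KO, and 2438 and 2498 in stimulated WT against 1202 and 1228 in KO (difference in response 1.73, SE 0.07, adjusted p = 1.94e-25). *Ccl1*, a ligand of CCR8, ran the other way after stimulation, with 25.5 and 30.4 CPM in WT and 58.9 and 63.1 in KO from unstimulated levels of 0.966 and 1.4 in WT and 0.667 and 0.817 in KO. Its response differed by 1.81 (SE 0.28, adjusted p = 4.95e-06). *Ccl7*, a monocyte attractant, passed with a smaller difference of 0.82 (SE 0.04, adjusted p = 2.79e-20).

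Of 33 cytokines and growth factors, 24 were tested, of which 6 had a higher and 2 a lower response in KO (background 5.44% and 3.83%). Their median log2 response in WT was 4.30, and of the 453 genes raised at least 2-fold in WT, 123 were higher and 61 lower. The count is therefore not read as a trait of the list. The list's median difference was 0.12, or 0.17 among the 17 with a mean above 3 counts in every group. *Lif* (NCBI Gene 16878), a cytokine of the IL-6 family, was the member past both thresholds. It had 291 CPM in both unstimulated WT libraries and 111 in both unstimulated KO libraries, and 5804 and 5767 CPM in stimulated WT against 4601 and 4591 in KO (difference in response 1.06, SE 0.03, adjusted p = 1.46e-30). *Csf1*, *Hbegf* and *Il6* were lower in unstimulated KO than in unstimulated WT (log2 differences -0.79, -0.52 and -0.53). After stimulation *Csf1* was still lower (-0.14), and *Hbegf* and *Il6* did not differ detectably (0.10 and 0.05). In response, *Csf1* differed by 0.65 (SE 0.03, adjusted p = 3.1e-21), *Hbegf* by 0.62 (SE 0.15, adjusted p = 0.00285) and *Il6* by 0.58 (SE 0.05, adjusted p = 1.05e-13). These encode the growth factor of macrophages, an EGF receptor ligand and an acute-phase cytokine, and the call of *Hbegf* was lost without the second unstimulated WT library (0.50, adjusted p = 0.0915). *Il13*, a cytokine of type 2 immunity, had 1233 and 1265 CPM in stimulated WT and 958 and 968 in stimulated KO, and its response differed by 0.31 (SE 0.07, adjusted p = 0.00322). That call was lost without the same library (0.17, adjusted p = 0.242) and with DESeq2 (0.30, adjusted p = 0.108). *Tnf*, the classic inflammatory cytokine of mast cells, rose by 9.38 in WT and 9.50 in KO. Its response did not differ detectably (0.11, SE 0.09, adjusted p = 0.587), although stimulated levels were 4324 and 4452 CPM in WT against 3363 and 3433 in KO.

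Feedback inhibitors of NF-κB and MAP kinase signalling included genes with a higher stimulated level in KO. Of 39 tested of 40 on the list, 14 had a higher and 3 a lower response (background 5.44% and 3.83%), and the median difference was 0.09. Induced genes passed more often than others, with 40.6% of the 453 genes raised at least 2-fold in WT. *Tnfaip3* (NCBI Gene 21929), which encodes the ubiquitin-editing enzyme A20 that shuts off NF-κB signalling, moved in opposite directions in WT and KO. It had 62.7 and 52.6 CPM in unstimulated and 37.9 and 34.2 in stimulated WT, but 98.0 and 97.0 in unstimulated and 250 and 248 in stimulated KO. It fell by 0.67 in WT and rose by 1.35 in KO, a difference of 2.03 (SE 0.08, adjusted p = 1.27e-25). *Dusp1* (NCBI Gene 19252), a phosphatase that inactivates p38 and JNK, started slightly lower in KO, with 8.21 and 7.86 CPM in unstimulated WT and 6.56 and 6.03 in KO, and reached 196 and 197 CPM in WT and 522 and 535 in KO. The difference in response was 1.78 (SE 0.10, adjusted p = 4.72e-19), and its window with the CRE is printed above. *Nfkbid*, a nuclear IκB protein, resembled *Nr4a1*, with lower unstimulated levels in KO (20.7 and 22.7 CPM against 51.9 and 47.0) and like stimulated levels (2086 and 2130 against 2114 and 2200), and a difference of 1.15 (SE 0.05, adjusted p = 1.88e-22). *Dusp2*, a nuclear phosphatase of ERK and p38, was the exception past both thresholds. Its levels were low, with 0.302 and 0.772 CPM in unstimulated WT, 3.52 and 2.71 in unstimulated KO, 4.28 and 4.60 in stimulated WT and 6.04 and 7.33 in stimulated KO, and the response was lower in KO by -1.92 (SE 0.39, adjusted p = 0.000502). It did not pass with limma on log2(FPKM + 1) without a filter (-0.75, adjusted p = 0.115), and was -1.42 and -2.78 without the first and the second unstimulated WT library.

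**Figure D3:**
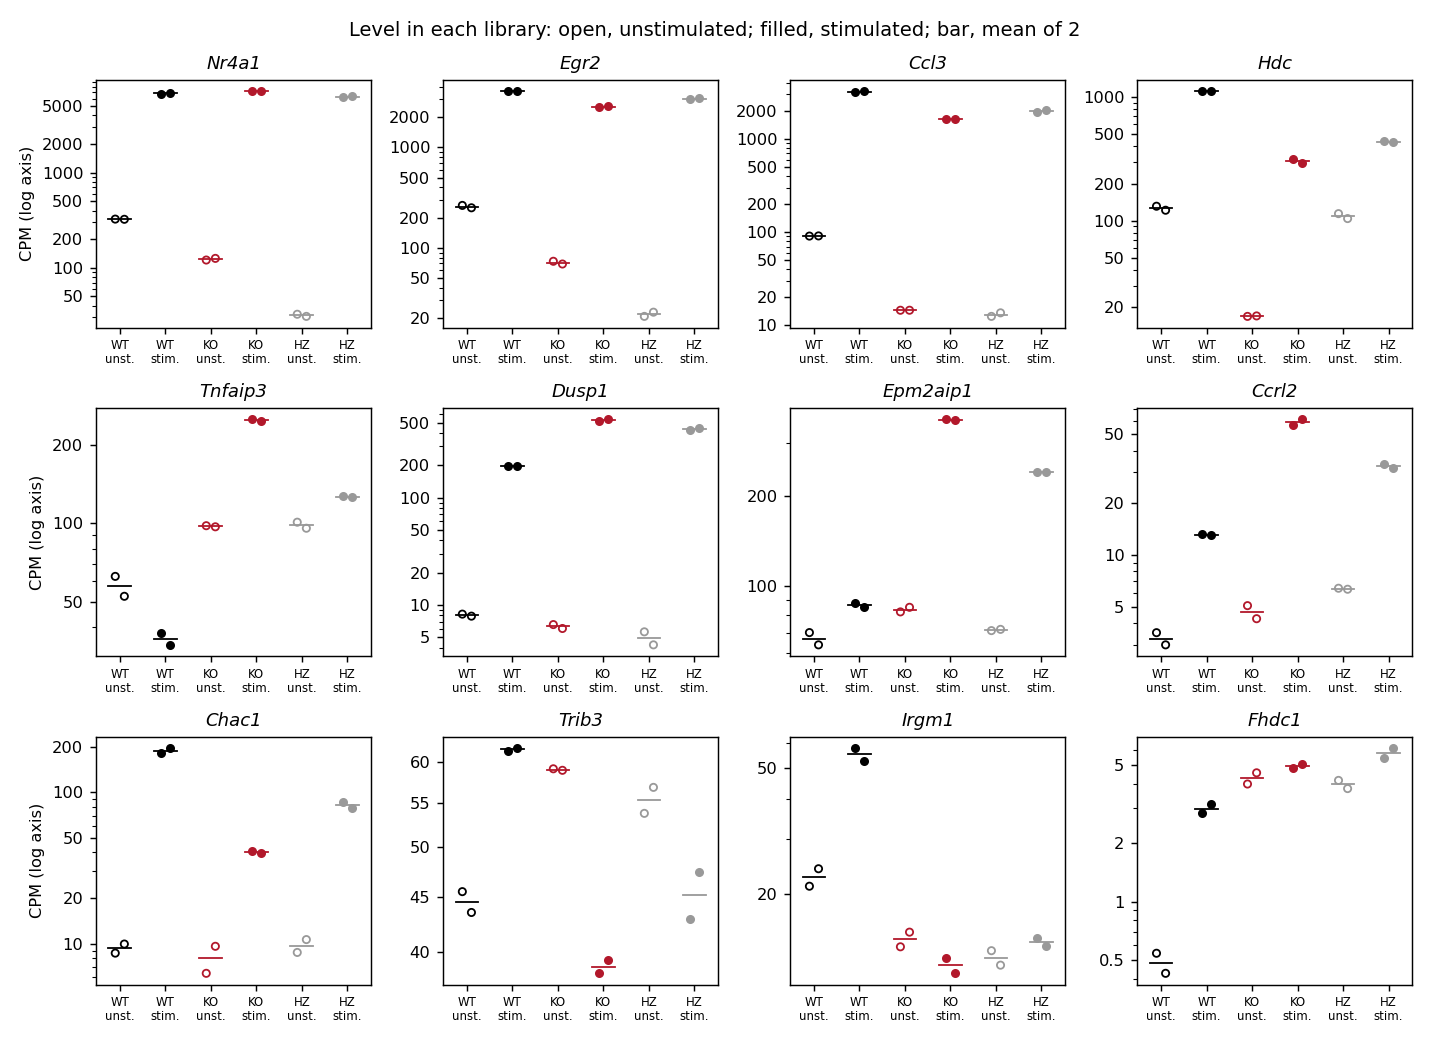
Level of 12 named genes in each library in CPM on a log axis, for WT (black), KO (red) and HZ (grey); open circles are unstimulated and filled circles stimulated libraries, and bars are means of 2. The top row shows genes low in unstimulated KO, the middle row genes high in stimulated KO, and the bottom row genes with a lower response in KO, of which *Irgm1* stays between 11.3 and 15.2 CPM in all 4 KO libraries.

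*Epm2aip1* and *Ccrl2* were only slightly higher in unstimulated KO and far higher in stimulated KO. *Epm2aip1* (NCBI Gene 77781), which encodes a partner of the glycogen phosphatase laforin, had 70.1 and 63.8 CPM in unstimulated WT, 82.2 and 85.2 in unstimulated KO, 88.3 and 85.6 in stimulated WT and 360 and 358 in stimulated KO (difference in response 1.73, SE 0.06, adjusted p = 2.73e-27). *Ccrl2*, a chemerin-binding receptor of mast cells, had 3.53 and 3.00 CPM in unstimulated and 13.2 and 13.0 in stimulated WT, and 5.07 and 4.26 in unstimulated and 56.7 and 60.9 in stimulated KO (1.65, SE 0.18, adjusted p = 7.59e-10). It was 1 of 2 adhesion and chemotactic receptors of 33 with a higher response, beside 2 with a lower one (background 5.44% and 3.83%). The median of that list was -0.05. *C5ar2*, the second receptor for complement C5a, was in the opposite direction, with 69.3 and 72.0 CPM in stimulated WT against 36.9 and 36.8 in KO from unstimulated levels of 22.7 to 24.8 in WT and KO (-0.86, SE 0.11, adjusted p = 2.93e-08). *Ptgs2* (NCBI Gene 19225), the inducible cyclooxygenase that starts prostaglandin synthesis, rose from 1.99 and 3.94 CPM to 757 and 740 in WT and from 1.68 and 0.874 to 1019 and 1018 in KO. Its difference was 1.66 (SE 0.22, adjusted p = 1.19e-07), was 1.05 (adjusted p = 0.00347) without the second unstimulated WT library and did not pass with DESeq2 (1.66, adjusted p = 0.0997). In the list of lipid mediator enzymes, 3 of 14 were higher and 2 lower (background 5.44% and 3.83%), with a median of -0.03.

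Genes of the mast cell granule moved in both directions, mostly by small amounts. Of 21 genes for granule contents, 4 had a higher and 6 a lower response in KO (background 5.44% and 3.83%), with a median of 0.04. *Hdc* (NCBI Gene 15186), the enzyme that makes histamine, was the exception in size. It had 131 and 122 CPM in unstimulated WT, 16.9 and 17.1 in unstimulated KO, 1116 and 1106 in stimulated WT and 316 and 290 in stimulated KO. KO libraries lay far below WT in both states, and the log2 response was higher in KO by 1.02 (SE 0.06, adjusted p = 1.45e-17). *Cpa3*, the mast cell carboxypeptidase, and *Tpsb2*, a tryptase, were among those with a slightly lower response (-0.18, SE 0.02, adjusted p = 1.2e-08, and -0.21, SE 0.03, adjusted p = 7.85e-08), as both rose slightly in WT (0.17 and 0.18) and changed by -0.01 and -0.03 in KO. Neither passed with limma on log2(FPKM + 1) without a filter (adjusted p = 0.168 and 0.108). *Slc18a2*, the vesicular monoamine transporter, had a difference of 0.24 (SE 0.03, adjusted p = 1.21e-07). Of 44 genes for the IgE receptor and its proximal signalling, 5 were higher and 4 lower (9.27% of all genes passed in either direction), with a median of 0.00. *Malt1*, the paracaspase that links antigen receptors to NF-κB, had 203 and 219 CPM in unstimulated WT against 102 and 101 in KO, and 512 and 499 against 430 and 435 after stimulation (0.84, SE 0.05, adjusted p = 2.88e-18). Its partner *Bcl10* had a lower response (-0.33, SE 0.10, adjusted p = 0.0314), a call that did not pass in 5 of 8 fits that left out 1 library, with the weakest value without the first unstimulated WT library (-0.21, adjusted p = 0.278). In the exocytosis machinery, 2 of 28 genes were higher and none was lower (background 5.44% and 3.83%), with a median of -0.01. They were *Vamp2*, a vesicle SNARE (0.29, SE 0.07, adjusted p = 0.00785), and *Syngr1*, a synaptic vesicle protein (0.57, SE 0.17, adjusted p = 0.0217). Both fell in WT (-0.28 and -0.56) and hardly changed in KO (0.01 and 0.01). Fits that left out 1 library gave 0.23 to 0.32 for *Vamp2* and 0.41 to 0.70 for *Syngr1*, and neither call held in all of them. Of 12 other settings, *Vamp2* did not pass in 1 and *Syngr1* in 3. *Cadm1*, an adhesion molecule, and *Vcl*, the focal adhesion protein vinculin, had differences of -0.10 (SE 0.08, adjusted p = 0.551) and -0.15 (SE 0.05, adjusted p = 0.0566).

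**Figure D4:**
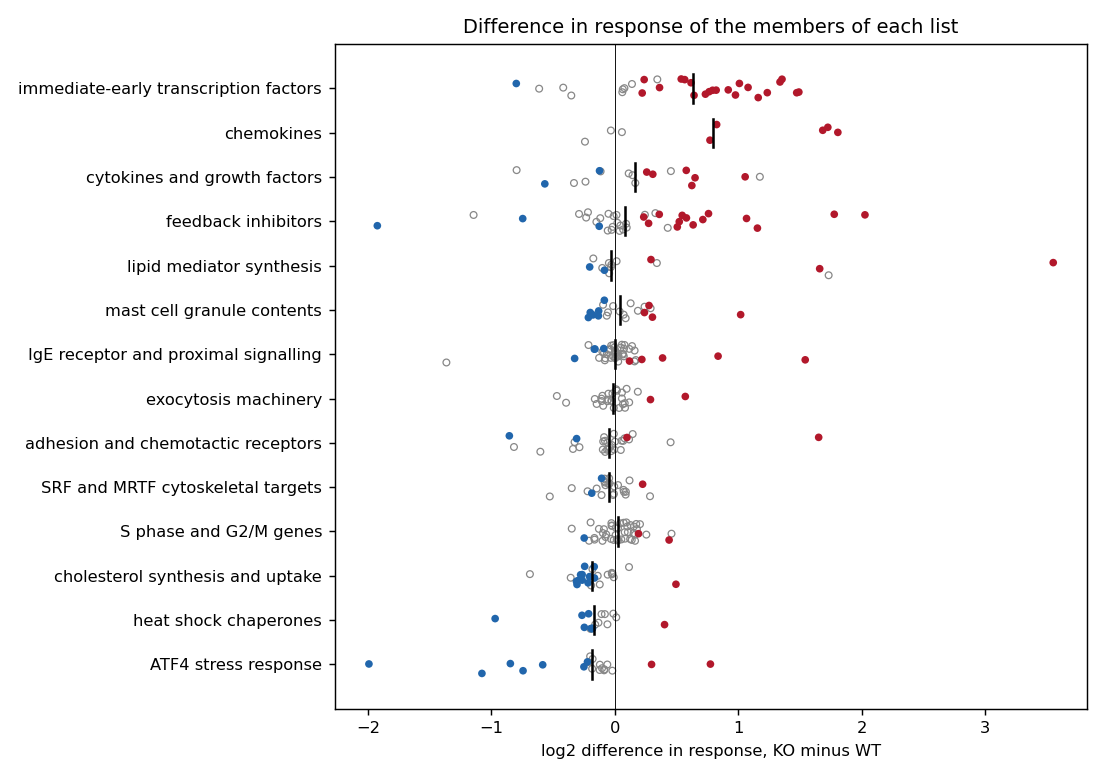
Log2 difference in response, KO minus WT, of the members of 14 gene lists that had a mean above 3 counts in each of the 4 groups; red and blue points passed at an adjusted p below 0.05, open circles did not, and black bars are medians of the members shown. Immediate-early factors and chemokines lie mostly to the right of 0, and cholesterol, heat shock and ATF4 genes mostly slightly to the left, with *Chac1* at -1.99 farthest left.

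Genes of the ATF4 stress response included 2 whose response was lower in KO past both thresholds. ATF4 is the transcription factor of the integrated stress response, which is switched on by amino acid shortage or unfolded protein. Of 21 tested, 7 had a lower and 2 a higher response in KO (background 3.83% and 5.44%), with a median of -0.18. *Chac1* (NCBI Gene 69065), a glutathione-degrading enzyme and classic ATF4 target, had 8.66 and 9.95 CPM in unstimulated WT and 6.37 and 9.61 in unstimulated KO. It reached 181 and 196 CPM in stimulated WT but only 40.8 and 40.0 in stimulated KO. The genotypes overlapped before stimulation and separated after it, and the response was lower in KO by -1.99 (SE 0.14, adjusted p = 1.58e-15). *Trib3* (NCBI Gene 228775), a pseudokinase that inhibits ATF4 and AKT, rose in WT from 45.5 and 43.5 to 61.4 and 61.8 CPM and fell in KO from 59.1 and 58.9 to 38.2 and 39.3 (-1.08, SE 0.09, adjusted p = 1.82e-13). *Ddit4*, an inhibitor of mTORC1, had 83.7 and 83.5 CPM in unstimulated and 143 and 140 in stimulated WT, and 107 and 105 in unstimulated and 102 and 97.6 in stimulated KO (-0.85, SE 0.06, adjusted p = 2.49e-15). *Ppp1r15a*, which ends the stress response by dephosphorylating eIF2α, was higher instead (0.77, SE 0.04, adjusted p = 1.65e-19).

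The ATF4 element TGATGNAA stood in the promoter windows of 7 of 20 genes of this list (35.0%, against 2.79% of all genes with a window), and in 3 of the 7 with a lower response. The windows of these 2 genes are shown, with the element in capitals as read on the opposite strand. Among the 18 genes with a lower response past both thresholds that had a window, 2 held the ATF4 element (11.1%). An AP-1 site stood in 2 (11.1%, against 6.07% of all genes with a window) and an EGR site in 4 (22.2%, against 12.1%). The CArG box and the CRE, found in 1.5% and 3.54% of all genes with a window, stood in 0 of the 18, a number too small to read that absence as a trait.
*Chac1*, chr2:119350992-119351291, plus strand: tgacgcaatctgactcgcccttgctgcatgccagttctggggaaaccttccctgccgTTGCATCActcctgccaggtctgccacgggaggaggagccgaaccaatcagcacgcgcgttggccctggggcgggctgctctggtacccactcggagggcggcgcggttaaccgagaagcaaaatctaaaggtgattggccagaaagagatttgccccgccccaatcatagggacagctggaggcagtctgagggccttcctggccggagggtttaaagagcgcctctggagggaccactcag
*Trib3*, chr2:152344011-152344310, minus strand: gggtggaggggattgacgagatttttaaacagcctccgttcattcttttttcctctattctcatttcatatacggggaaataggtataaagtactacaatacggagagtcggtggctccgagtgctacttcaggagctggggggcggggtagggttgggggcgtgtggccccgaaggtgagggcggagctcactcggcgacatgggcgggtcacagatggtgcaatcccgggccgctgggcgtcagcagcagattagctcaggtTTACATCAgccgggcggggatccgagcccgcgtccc

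Part of the cholesterol and heat shock genes had a slightly lower response. Of 24 genes of cholesterol synthesis and uptake, 11 had a lower and 1 a higher response in KO (background 3.83% and 5.44%), none past the 2-fold threshold, 12 did not pass and the median was -0.19. In unstimulated KO, 22 of the 24 were higher than in WT (22.9% of all genes tested). *Sqle*, the squalene epoxidase, had 170 and 165 CPM in unstimulated WT and 203 and 202 in unstimulated KO, and 233 and 235 against 230 and 228 after stimulation. Stimulated levels met, and the response was lower in KO by -0.31 (SE 0.05, adjusted p = 5.87e-06). *Msmo1*, a sterol demethylase, differed by -0.30 (SE 0.07, adjusted p = 0.00115). Of 16 heat shock chaperones, 7 were lower, 1 was higher (background 3.83% and 5.44%) and 8 did not pass, with a median of -0.17. In unstimulated KO, 12 were higher (22.9% of all genes tested). *Hspa1b*, an inducible HSP70, rose from 0.815 and 0.943 to 38.9 and 38.3 CPM in WT and from 2.43 and 1.97 to 49.9 and 48.6 in KO, which gave a difference of -0.97 (SE 0.23, adjusted p = 0.00288). The call was lost without the first unstimulated KO library (-0.81, adjusted p = 0.0515), and *Hspa1b* shares most of its sequence with *Hspa1a*, so that reads of the 2 genes can be split between them. *Hspa9* and *Hspd1*, mitochondrial chaperones, differed by -0.27 (SE 0.05, adjusted p = 3.14e-05) and -0.25 (SE 0.05, adjusted p = 0.00132).

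Among the remaining genes with a lower response, *Irgm1* (NCBI Gene 15944), an interferon-inducible GTPase, lost its induction. It had 21.2 and 24.1 CPM in unstimulated and 58.0 and 52.9 in stimulated WT, and 13.7 and 15.2 in unstimulated and 12.6 and 11.3 in stimulated KO (-1.57, SE 0.14, adjusted p = 2.48e-12). Interferon-stimulated genes as a list did not share this, with 1 of 20 higher, none lower (background 5.44% and 3.83%) and a median of -0.11. *Clp1*, a kinase of RNA processing, rose from 15.1 and 13.7 to 22.5 and 20.6 CPM in WT and fell from 15 and 16.1 to 12.8 and 9.66 in KO (-1.05, SE 0.17, adjusted p = 6.05e-06). *Fhdc1*, a formin of microtubules, had the lowest difference of the genes eligible by count (-2.41, SE 0.37, adjusted p = 4.6e-06). It was at 0.543 and 0.429 CPM in unstimulated WT and 2.83 and 3.16 in stimulated WT, and already at 4.00 and 4.57 in unstimulated KO and 4.82 and 5.07 in stimulated KO. *Car2*, a carbonic anhydrase, was likewise at 0.936 and 0.715 CPM in unstimulated WT and 7.60 and 6.60 in unstimulated KO, with 7.62 and 7.30 in stimulated KO (-1.19, SE 0.34, adjusted p = 0.0172), but this call did not pass in 3 of 8 fits that left out 1 library, with the weakest value without the first stimulated WT library (-0.90, adjusted p = 0.170). *Prag1*, a pseudokinase of the actin cytoskeleton, rose from 2.99 and 2.17 to 9.39 and 9.84 CPM in WT and stood at 4.35 and 3.18 against 5.10 and 4.17 in KO (-1.60, SE 0.30, adjusted p = 0.00013). *Zfp105*, a zinc finger protein, had 2.69 and 2.54 CPM in unstimulated WT, 2.32 and 3.73 in stimulated WT, 3.39 and 3.13 in unstimulated KO and 0.683 and 1.04 in stimulated KO (-2.12, SE 0.45, adjusted p = 0.000811). *Sema7a*, a semaphorin, had at most 0.640 CPM in any unstimulated library and 4.61 and 4.90 in stimulated WT against 2.95 and 2.68 in KO (-2.37, SE 0.60, adjusted p = 0.00625). Without the first unstimulated WT library its adjusted p was 0.0613.

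The largest higher response of an abundant gene belonged to *Lars2* (NCBI Gene 102436), the mitochondrial leucyl-tRNA synthetase. It had 1699 and 1224 CPM in unstimulated WT and between 247 and 305 CPM in the other 6 libraries of the contrast. The 2 unstimulated WT libraries thus stood apart from all others and from each other, and the difference in response was 2.56 (SE 0.12, adjusted p = 5.73e-23). *LOC118568312*, a gene model without a name, followed it, with 3300 and 2435 CPM in unstimulated WT and between 1139 and 1438 in the other 6 libraries (1.45, SE 0.12, adjusted p = 1.82e-13). Both genes also differed between the 2 libraries of unstimulated HZ, with 622 and 844 CPM for *Lars2* and 1985 and 2897 for *LOC118568312*. *Creb5*, a CRE-binding factor, was at 7.21 and 7.55 CPM in unstimulated WT, 6.53 and 6.11 in stimulated WT, 0.960 and 0.789 in unstimulated KO and 2.77 and 2.61 in stimulated KO (1.84, SE 0.32, adjusted p = 3.51e-05). *Olr1*, the receptor for oxidized LDL, rose from 178 and 185 to 8921 and 8783 counts in WT and from 5 and 2 to 642 and 737 counts in KO. Its fold was 55.9 in WT (95% exact counting interval 50.3 to 62.1) and 254 in KO (123 to 633), a log2 difference of 2.13 (SE 0.42, adjusted p = 0.000304), while the gain in CPM was 292 in WT and 24.3 in KO. On the log2(FPKM + 1) scale the sign turned (-2.04, adjusted p = 1.09e-07 with limma).

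Another 3 induced genes had a group at almost no counts. *Plk2*, a polo-like kinase, had 29 and 32 counts in unstimulated and 484 and 467 in stimulated WT, and 0 in both unstimulated and 49 and 42 in stimulated KO. Its fold was 17.9 in WT (95% exact counting interval 13.8 to 23.5). In KO the stimulated level was 39.1-fold above an assumed 3 counts over the 2 unstimulated libraries. The KO fold is therefore at least 39.1 if the unstimulated level is at most 3 counts. *Gzmd*, a granzyme, had 16 and 8 counts in unstimulated and 383 and 453 in stimulated WT, and 1 and 0 in unstimulated and 155 and 228 in stimulated KO, which gave a ratio of 39.9 in WT (26.6 to 62.6) and 494 in KO (88.1 to 19550). *Ccn1*, a matricellular SRF target, had 17 and 15 counts in unstimulated and 592 and 629 in stimulated WT, and 2 and 4 in unstimulated and 377 and 435 in stimulated KO, with ratios of 43.7 (30.8 to 64.2) and 174 (79.8 to 477). In all 3 the stimulated level was lower in KO, and the unstimulated KO libraries held 0 to 6 counts together. On the log2(FPKM + 1) scale the differences were -1.58, -0.49 and -0.19. These intervals cover counting error only. Over all genes tested, 545 had a mean of at most 3 counts in 1 of the 4 groups, and 11 of these passed both thresholds.

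Genes that differed between genotypes before stimulation often did not differ in their response. Of 45 S phase and G2/M genes, 43 were lower in unstimulated KO (21.7% of all genes tested). The list had a median log2 difference of -1.22 before and -1.18 after stimulation. The response, however, was higher for 2 and lower for 1 (background 5.44% and 3.83%), with a median of 0.03. *Ccna2*, *Ccnb2*, *Cdk2* and *E2f2*, which encode cyclins, a cyclin-dependent kinase and an S phase factor, had differences in response of 0.08, 0.01, 0.08 and -0.03, with adjusted p between 0.64 and 0.993. *Cdk6* passed with 0.19 (SE 0.05, adjusted p = 0.00553). That call did not hold in every fit that left out 1 library (0.12 to 0.23), and failed in 3 of 12 other settings. Of 17 genes for G1 cyclins and cell cycle inhibitors, 1 was higher and 2 were lower (background 5.44% and 3.83%), with a median of 0.03. Of 26 cytoskeletal SRF and MRTF targets, 2 were higher and 2 lower (background 5.44% and 3.83%), with a median of -0.04. Among them *Actb*, cytoplasmic actin, had -0.19 (SE 0.03, adjusted p = 2.32e-06). Of 20 ternary complex factors, SRF and partner genes, 1 passed, beside 9.27% of all genes tested. It was *Spi1*, a myeloid ETS factor, with a lower response (-0.28, SE 0.08, adjusted p = 0.0181). That call did not pass in 4 of 8 fits that left out 1 library, such as that without the second stimulated WT library (-0.20). *Mitf* and *Sirt6*, whose proteins the study followed as partners of ELK4, did not pass (0.12, SE 0.06, adjusted p = 0.268, and 0.07, SE 0.18, adjusted p = 0.881). Of the 17 genes measured by qPCR or named in the study, 7 had a higher response and none a lower one (background 5.44% and 3.83%). Since the way each was chosen is not stated in full, that count is not independent evidence of a direction. Of 68 genes with ternary complex factor binding listed by the study, 11 were higher and 3 lower (background 5.44% and 3.83%), with a median of 0.02. Those past the 2-fold threshold were *Ptgs2*, *Nr4a1*, *Egr2* and *Fos*. Of 335 genes with symbols that start with Zfp, most of them zinc finger proteins, 19 were higher and 5 lower (background 5.44% and 3.83%), with a median of 0.08, and similar members of that family can share reads.

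The same difference was read for the libraries labelled HZ. How cultures of the genotypes were prepared relative to each other is not stated, so an effect of genotype cannot be told apart from one of culture. Both differences share the 4 WT libraries, so the values are set side by side without a test of their likeness. At an adjusted p below 0.05 without a fold threshold, HZ differed from WT in response for 2429 genes in the higher (19.9%) and 2276 in the lower direction (18.6%), and past the 2-fold threshold for 484 and 247. For KO these counts were smaller, 664 and 468 without and 60 and 26 with the fold threshold. *Nr4a1* had 32.4 and 30.8 CPM in unstimulated HZ and 6231 and 6389 in stimulated HZ, so that its unstimulated level lay below that of KO, and its difference from WT in response was 3.24 in HZ and 1.47 in KO. *Egr2* had 20.8 and 23.0 CPM in unstimulated HZ, with differences of 3.31 in HZ and 1.34 in KO. *Ccl3* had 2.10 in HZ and 1.68 in KO, and *Dusp1* 1.85 and 1.78. *Tnfaip3* had 1.04 in HZ and 2.03 in KO, and *Chac1* -1.25 and -1.99. *Hdc* had opposite signs, -1.14 in HZ and 1.02 in KO, as its unstimulated level of 114 and 104 CPM in HZ was near that of WT and its stimulated level of 440 and 432 was nearer that of KO. *Creb5* passed in KO alone (1.84, against -0.12 in HZ, adjusted p = 0.77); HZ and KO responses were not tested against each other.

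**Figure D5:**
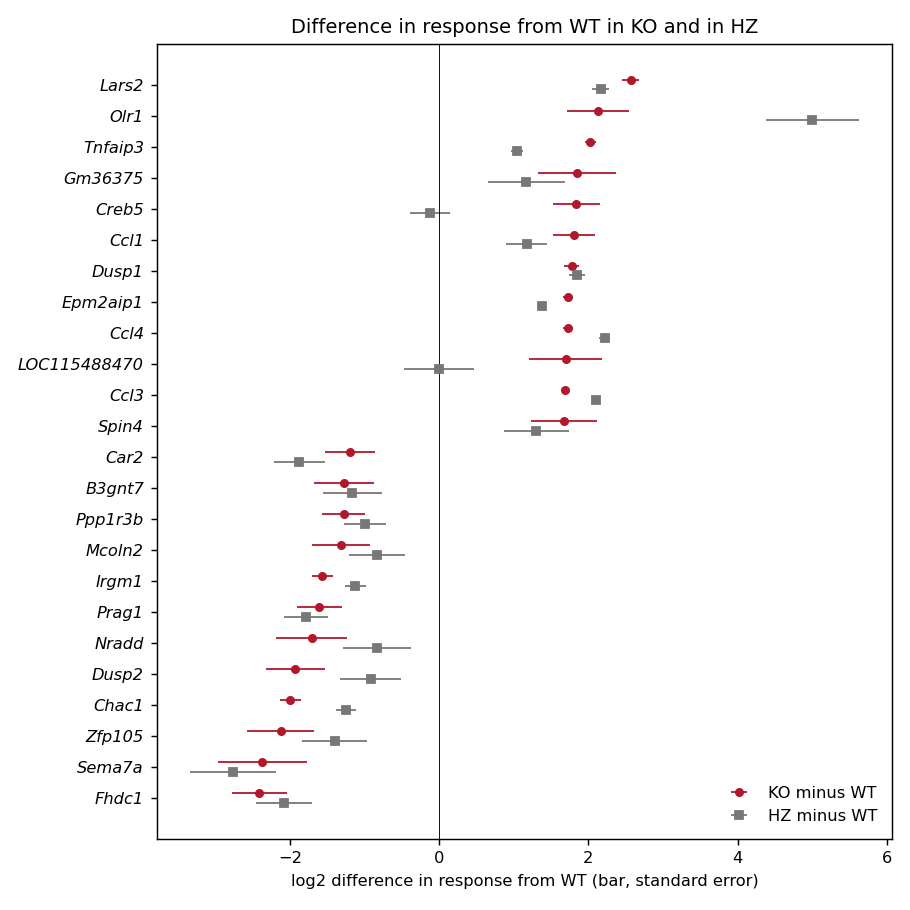
Log2 difference in response from WT, with its standard error, in KO (red circles) and in HZ (grey squares) for the 12 genes with the highest and the 12 with the lowest difference in KO under the rule for named genes. *Creb5* and *LOC115488470* lie near 0 in HZ, and *Olr1* lies farther right in HZ than in KO.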

How the data were processed

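The 12 BMMC RNA-seq libraries were analysed from the deposited table of raw counts per gene, which the authors made from sequencing reads. The submitters' processing notes name fastp, HISAT2 and HTSeq and the GRCm39 build; versions and settings are not given in the sources used here. The deposited FPKM values, which the authors made from the same counts, served an alternative only. Counts were tested with edgeR 4.0.16 in R 4.3.3 (filterByExpr, TMM scaling, quasi-likelihood fit, 1 mean for each of 6 groups, Benjamini-Hochberg adjustment over 12208 genes), with the contrast (KO stimulated minus KO) minus (WT stimulated minus WT). Calls required an adjusted p below 0.05, with or without a log2 difference of at least 1. Prior count was 0.125.

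Named genes were the 12 with the largest difference in each direction past both thresholds with at least 100 counts in a group, more than 3 in each and responses that did not overlap, up to 4 called members of each list, genes the study measured, the 3 largest of each response pattern, and low-count genes with the most counts. Of the named genes, 1 is not reported here. The members and lists were chosen with earlier results of these data known. Alternatives were DESeq2 1.42.0, limma 3.58.1 on log2(FPKM + pseudocount), other scalings and filters, and leaving out each library. On simulated counts with 200 genes changed by 1.5 on the log2 scale in this contrast, edgeR found 194 among 12081 genes. False calls were 2 past both thresholds and 14 at any size. The changed genes were drawn only from genes well expressed in each WT and KO group, with the spread estimated from these same data. The recovery therefore does not apply to genes with few counts in a group.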

Additional observations from a re-analysis of the deposited data

Results flagged for a closer look

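The test of the difference in response between genotypes gave 60 genes with a higher and 26 with a lower response in KO past both thresholds, and every gene named here is among them because that test, the quasi-likelihood test of edgeR with p-values adjusted by Benjamini-Hochberg, passed. Values are log2 differences in response, KO minus WT. No explanation was tested.

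Among inducible regulators the differences were 2.03 for *Tnfaip3*, 1.78 for *Dusp1*, 1.49 for *Csrnp1*, 1.47 for *Nr4a1*, 1.35 for *Nr4a3*, 1.34 for *Egr2*, 1.16 for *Fos*, 1.15 for *Nfkbid* and -1.92 for *Dusp2*. Among secreted factors and receptors they were 1.81 for *Ccl1*, 1.73 for *Ccl4*, 1.68 for *Ccl3*, 1.06 for *Lif*, 1.65 for *Ccrl2* and 2.13 for *Olr1*. Among enzymes and signalling proteins they were 1.66 for *Ptgs2*, 1.02 for *Hdc*, 1.73 for *Epm2aip1* and 1.84 for *Creb5*. *Lars2* (2.56) and *LOC118568312* (1.45) were highest in unstimulated WT among the 8 libraries. The low-count genes gave 4.55 for *Plk2*, 3.29 for *Gzmd* and 1.94 for *Ccn1*, fitted values that depend on the prior count and are no bounds.

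Several genes of higher response were not described above. *Pla2g4b*, a cytosolic phospholipase, had 1.18 and 1.06 CPM in unstimulated and 0.135 and 0.134 in stimulated WT, and 0.507 and 0.395 in unstimulated and 0.791 and 0.521 in stimulated KO (3.55). *Siglecf*, an eosinophil lectin also found on mast cells, had at most 3.57 CPM in any library (2.35). *Spin4* rose from 1.27 and 1.46 to 4.58 and 4.84 CPM in WT and from 0.720 and 0.282 to 5.68 and 5.52 in KO (1.68). *9130008F23Rik*, at 5.61 to 7.76 CPM in KO and 0.505 to 1.78 in WT, gave 1.67. *LOC108167553* fell from 11.6 and 15.4 to 2.69 and 4.13 CPM in WT and from 9.07 and 9.53 to 5.75 and 5.56 in KO (1.26). *Gm36375* (1.85), *LOC115488470* (1.70) and *Ccdc62* (1.32) had at most 5.63 CPM in any of the 8 libraries.

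Among genes of lower response, *Fhdc1* had -2.41, *Sema7a* -2.37, *Zfp105* -2.12, *Chac1* -1.99, *Prag1* -1.60, *Irgm1* -1.57, *Car2* -1.19, *Trib3* -1.08 and *Clp1* -1.05. *Ppp1r3b*, a glycogen-targeting subunit of protein phosphatase 1, fell from 7.91 and 7.89 to 4.65 and 4.60 CPM in WT and from 7.76 and 9.39 to 1.29 and 2.81 in KO (-1.28). *Frat1*, a GSK3-binding protein, had 3.92 and 3.77 CPM in unstimulated WT, 9.04 and 8.91 in unstimulated KO and 2.79 to 3.38 in the stimulated libraries of both (-1.02). *D17H6S53E* fell from 7.85 and 7.92 to 3.84 and 4.50 CPM in WT and from 9.68 and 12.3 to 1.98 and 3.27 in KO (-1.14). *Nradd* (-1.71), *Mcoln2* (-1.31), a lysosomal channel, and *B3gnt7* (-1.28) had at most 4.99 CPM in any of the 8 libraries.

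Calls of 16 named genes past both thresholds did not pass in at least 1 of the 8 fits that left out a library of the contrast. *Siglecf* did not pass in 7, *B3gnt7* in 6, *Gzmd* in 5, *Gm36375*, *LOC115488470*, *Mcoln2* and *Nradd* in 4, *Plk2*, *Ccdc62* and *Car2* in 3 and *Pla2g4b* and *Ccn1* in 2. *Spin4* did not pass without the second unstimulated KO library (1.17, adjusted p = 0.138 with edgeR), *D17H6S53E* and *Ppp1r3b* without the first stimulated KO library (-0.83, adjusted p = 0.0644, and -0.83, adjusted p = 0.0758), and *Sema7a* without the first unstimulated WT library (-1.94, adjusted p = 0.0613).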

How the results depend on the processing

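With 60 genes of higher and 26 of lower response as reported, other edgeR and DESeq2 settings (DESeq2, its size factors, scaling by totals, no filter, a minimum of 10 counts, 4 groups only, prior count 2) gave 48 to 73 higher and 23 to 37 lower. DESeq2 kept 77 of the 86 past both thresholds. Limma on log2(FPKM + 1) gave 27 and 14 with a mean FPKM of at least 0.5 and 27 and 12 without a filter, and kept 30 of the 86 in either case; with a pseudocount of 0.1 it gave 44 and 21 and kept 54. An adjusted p below 0.05 without a fold threshold gave 664 and 468, a fold of at least 1.5 gave 156 and 64, and an adjusted p below 0.01 gave 43 and 15. Leaving out single libraries gave 47 to 65 higher and 23 to 33 lower and kept 58 to 74 of the 86. Of the 86, the direction was kept by 65 of 70 tested and 79 of 86 on the log2(FPKM + 1) scale with and without the filter, by 69 of 70 with a pseudocount of 0.1 and by 85 without the second unstimulated WT library. Among the named genes, the sign turned for *Plk2* (-1.58 with both filters on log2(FPKM + 1), -0.90 with a pseudocount of 0.1), *Gzmd* (-0.49), *Olr1* (-2.04) and *Ccn1* (-0.19), all on the FPKM scale, where a pseudocount compresses low levels. Over named genes and alternatives, 1782 values kept their direction and side of the threshold, 208 no longer passed, 6 newly passed and 9 turned.

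The replicate block gave 61 higher and 26 lower, and kept all 86, and the block within genotype gave 61 and 26 and kept 83. Deviations of libraries with the same number correlated by -0.0161 in WT, -0.0838 in KO and 0.0543 in HZ over 9858 genes, so the numbers were not read as pairs. Groups of 2 libraries limit each call, and genes with few counts in a group carry the widest errors. The cause of the differences between settings was not tested.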
